A study of Mus musculus with 6 samples.

Results

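The genes described here encode SR family splicing regulators and close relatives: Tra2a, Tra2b, Srsf1, Srsf2, Srsf3, Srsf5, Srsf6, Srsf7, Srsf11 and Srrm2. They were selected with array values of this series known. The value behind the choice is taken here to be chiefly the high dose minus control difference of Tra2a. The members' values of that difference are therefore given below as a description, with no p-value of theirs. A probe set, the group of short probes that Affymetrix designed for 1 transcript region, was a member if the platform annotation paired it with exactly 1 gene symbol and that symbol was on the list. This gave 40 of the 45101 probe sets on the array and 9 of the 10 listed genes; Srsf7 had no probe set in the annotation supplied and was not analysed here. Of the 40, 35 passed a filter on dim probe sets (above the median of its array on at least 2 of 6 arrays) and entered the tests, with at least 1 for each of the 9 genes. The 5 that did not pass were 1459753_x_at and 1439043_at of Tra2a, 1446496_at and 1444509_at of Tra2b, and 1457136_at of Srsf1.

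The study gave venlafaxine, an inhibitor of serotonin and noradrenaline reuptake used as an antidepressant, to male DBA/2 mice in their drinking water for 30 days and measured hippocampal RNA on 3'-biased expression arrays. The groups were control (0 mg per kg per day), low dose (30 mg per kg per day) and high dose (100 mg per kg per day), with 10 animals per group. All mice were housed singly, and their age is not given in the sources used here. Each array held 1 pool from 1 side of the brain, so a dose group has a left and a right pool, which may come from the same animals, and the p-values below reflect no more than how far these pools differ, which may be technical. Control replicate 1 (right) and high dose replicate 1 (left) were hybridized on a first date together with both low dose pools (replicate 1 right, replicate 2 left). High dose replicate 2 (right) and control replicate 2 (left) were hybridized on a later date. Within the high dose and control groups, date and side therefore change together.

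SR proteins bind short enhancer sequences in exons through RNA recognition motifs and help the spliceosome settle on nearby splice sites through domains rich in arginine and serine. Their phosphorylation by SRPK and CLK kinases moves them between nuclear speckles, the nucleus and, for some members, the cytoplasm, where Srsf3 and Srsf1 also act in RNA export and translation. Many of them control their own level through exons that send the transcript to nonsense-mediated decay, and in neurons they shape the splicing of synaptic and ion channel transcripts.

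The start regions of the 3 genes on which the results turn are shown because their probe sets moved most between arrays. Each runs 5′ to 3′ on the gene's strand from 250 bases before to 50 bases after the transcription start, from RefSeq on GRCm38.p6, and capitals mark TGACG on either strand (the other strand reads CGTCA). For Tra2a the region is chr6:49264003-49264302 on the minus strand, for Tra2b chr16:22265956-22266255 on the minus strand, and for Srrm2, at the first of its start sites, chr17:23802937-23803236 on the plus strand.
Tra2a: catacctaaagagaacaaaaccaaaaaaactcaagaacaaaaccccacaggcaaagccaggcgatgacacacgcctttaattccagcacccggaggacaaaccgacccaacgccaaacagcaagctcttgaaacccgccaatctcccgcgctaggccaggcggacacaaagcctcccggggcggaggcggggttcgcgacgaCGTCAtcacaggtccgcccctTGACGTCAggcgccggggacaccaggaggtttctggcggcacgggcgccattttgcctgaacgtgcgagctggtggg
Tra2b: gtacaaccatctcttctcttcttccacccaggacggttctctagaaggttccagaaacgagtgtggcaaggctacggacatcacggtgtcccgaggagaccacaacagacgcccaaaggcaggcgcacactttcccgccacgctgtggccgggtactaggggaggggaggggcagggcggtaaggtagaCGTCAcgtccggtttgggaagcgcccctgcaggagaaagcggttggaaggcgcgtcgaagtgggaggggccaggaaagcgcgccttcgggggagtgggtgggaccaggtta
Srrm2: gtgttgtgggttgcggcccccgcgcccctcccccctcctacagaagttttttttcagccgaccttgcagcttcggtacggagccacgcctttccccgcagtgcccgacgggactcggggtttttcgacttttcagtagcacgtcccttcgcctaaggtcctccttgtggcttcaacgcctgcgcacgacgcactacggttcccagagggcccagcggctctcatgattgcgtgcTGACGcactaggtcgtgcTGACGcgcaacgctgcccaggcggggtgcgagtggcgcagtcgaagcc
The motif is the core of the cyclic AMP response element, TGACGTCA, which contains TGACG on both strands, and it was picked after the sequences had been read. TGACG on either strand was present in 10 of the 12 member start regions, of which the 2 of Srrm2 overlap almost wholly, and in 20.8% of 32851 mouse start regions of the same length. The whole TGACGTCA occurred in 1 of the 12, that of Tra2a, and in 1.79% of all. Because the motif was picked from these sequences, nothing is read from the members' counts beside those shares. A match describes the letters only and does not show that a factor binds there.

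The 6 arrays correlated at 0.9945 to 0.9985 over all probe sets, and array medians lay between 7.79 and 7.80 on the log2 scale; having only 6 arrays limits how precise the values below are. All 9 listed markers of hippocampal neurons passed the filter. Limma called no marker probe set at either dose, but mean levels of some lists were apart. Each mean was taken over the brightest probe set of every listed gene that had one, passing or not. Of 8 listed striatal markers 7 had a probe set, and 6 passed, Drd2 not. The 7 averaged 9.72 and 9.48 on high dose arrays against 9.803 and 9.999 on control arrays. Markers of neocortex (6 of 7 passing) averaged 9.86 and 9.76 on high dose arrays and 10.08 and 9.92 on control arrays. Markers of meninges (7 of 7, with Col1a1 included though it did not pass) averaged 9.28 and 9.32 on high dose arrays and 9.17 and 9.00 on control arrays. Those of choroid plexus (7 of 7) averaged 9.56 and 10.03 on high dose arrays and 9.70 and 9.43 on control arrays, which overlap. The part of these tissues in the values below was not tested, and in pooled tissue fewer cells of a type and less RNA per cell cannot be told apart.

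Tra2a, which like Tra2b is a mammalian counterpart of the fly splicing factor transformer-2 and binds exonic enhancers rich in GAA, had the lowest high dose value of any member relative to control. Its brightest probe set, 1454725_at, measured 11.10 and 10.56 on control arrays (replicates 1 and 2), 10.69 and 10.66 on low dose arrays, and 10.54 and 10.08 on high dose arrays. Neither high dose array reached a control array, while the low dose arrays lay between the 2 control arrays. The mean was 10.31 ± 0.33 at the high dose and 10.83 ± 0.38 in control (SD, n = 2 each), a log2 difference of -0.52 or a ratio of 0.698. The difference was -0.48 on the later date and -0.56 on the first date. Within sides it was -0.02 between the left pools and -1.02 between the right pools, which compare arrays of different dates. Dropping 1 control array changed it to -0.25 (replicate 1 dropped) or -0.79 (replicate 2 dropped), and dropping 1 high dose array to -0.75 (replicate 1) or -0.29 (replicate 2). The low dose minus control difference was -0.15, but -0.42 between arrays of the first date and 0.11 without control replicate 1.

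The other Tra2a probe sets did not all follow. On 1442886_at the control arrays measured 10.15 and 9.79, the low dose arrays 9.95 and 9.94, and the high dose arrays 9.87 and 9.62, with a high dose minus control difference of -0.23. Dropping control replicate 1 or 2 gave -0.05 or -0.40, and dropping high dose replicate 1 or 2 gave -0.35 or -0.10. The first high dose array lay above the later control array, so the groups overlapped. On 1429680_at the control arrays measured 8.47 and 8.53, the low dose arrays 8.50 and 8.51, and the high dose arrays 8.36 and 8.49, a high dose minus control difference of -0.08. On 1455933_at the control arrays measured 8.45 and 8.27, the low dose arrays 8.27 and 8.19, and the high dose arrays 8.26 and 8.24. This was the 1 of 35 tested members on which all 4 treated arrays lay below both control arrays, a pattern seen on 5.24% of all tested probe sets, and the gap to the nearest control array was small beside the difference between the 2 control arrays. Over the 6 arrays 1454725_at and 1442886_at followed each other (Pearson r = 0.979, a description over 6 arrays that share dates and doses), while the 6 pairs of Tra2a probe sets ran from -0.111 to 0.979. The 2 dim probe sets, 1459753_x_at and 1439043_at, had high dose means of 7.16 and 6.71 against control means of 7.19 and 6.75.

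**Figure D1:**
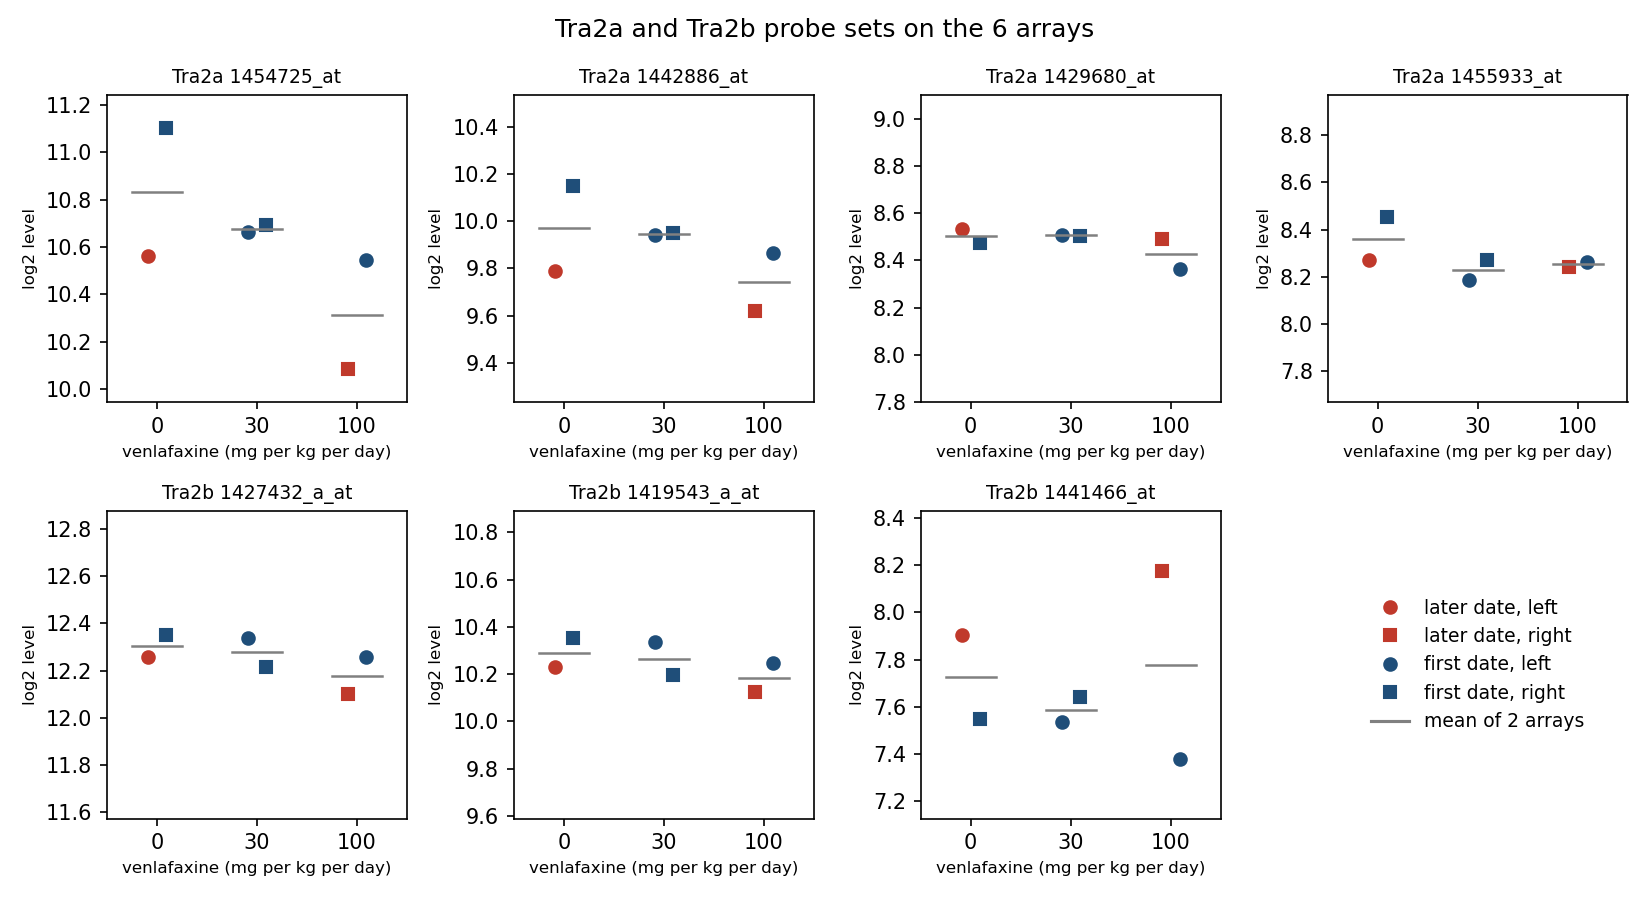
Log2 level (y axis, 1.3 log2 units in every panel) of the 7 tested Tra2a and Tra2b probe sets on each array against venlafaxine dose (x axis, mg per kg per day), with colour for hybridization date, shape for brain side and a grey bar for the mean of 2 arrays. For Tra2a 1454725_at the high dose arrays sit at 10.54 and 10.08 against 11.10 and 10.56 in control, while Tra2b 1441466_at is highest on the later date, at 8.18 and 7.90.

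Tra2b, the closest relative of Tra2a and its functional partner on many exons, showed small differences by dose. Its brightest probe set, 1427432_a_at, measured 12.35 and 12.26 on control arrays, 12.22 and 12.34 on low dose arrays, and 12.26 and 12.10 on high dose arrays. The high dose minus control difference was -0.12 there and -0.11 on 1419543_a_at, and on both it was below 0 on each date. The second of these measured 10.35 and 10.23 on control arrays, 10.19 and 10.33 on low dose arrays, and 10.25 and 10.12 on high dose arrays, and on both the high dose and control arrays overlapped. The third, 1441466_at, ran otherwise: 7.55 and 7.90 on control arrays, 7.64 and 7.53 on low dose arrays, and 7.38 and 8.18 on high dose arrays. The first 2 correlated at 0.976 over the 6 arrays and each correlated negatively with 1441466_at (-0.757 to -0.714). The dim probe sets had high dose means of 7.42 (1446496_at) and 7.21 (1444509_at) against control means of 7.49 and 7.16.

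Srrm2, a large scaffold of nuclear speckles that sits in the active spliceosome, gave 3 probe sets with different patterns. The brightest, 1438688_at, measured 11.49 and 11.97 on control arrays, 11.24 and 11.24 on low dose arrays, and 11.07 and 12.20 on high dose arrays. The low dose arrays were the tightest pair and lay below both control arrays, while the 2 high dose arrays were the lowest and the highest of all 6. Its high dose minus control difference was -0.09, made of 0.23 on the later date and -0.42 on the first date, and its low dose minus control difference was -0.49, or -0.25 between arrays of the first date. On 1437638_at the control arrays measured 8.91 and 8.65, the low dose arrays 8.61 and 8.70, and the high dose arrays 8.25 and 8.51. Both high dose arrays were the lowest 2 of the 6, and the high dose minus control difference was -0.40, with -0.13 on the later date and -0.66 on the first date and values from -0.53 to -0.27 when 1 array was left out, the smallest in size without control replicate 1. On 1427902_at the control arrays measured 10.76 and 10.49, the low dose arrays 10.54 and 10.57, and the high dose arrays 10.33 and 10.46, a difference of -0.23 that became -0.10 without control replicate 1 and -0.36 without control replicate 2. These last 2 correlated at 0.969 over the 6 arrays, whereas each correlated weakly with 1438688_at (0.019 and 0.156).

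**Figure D2:**
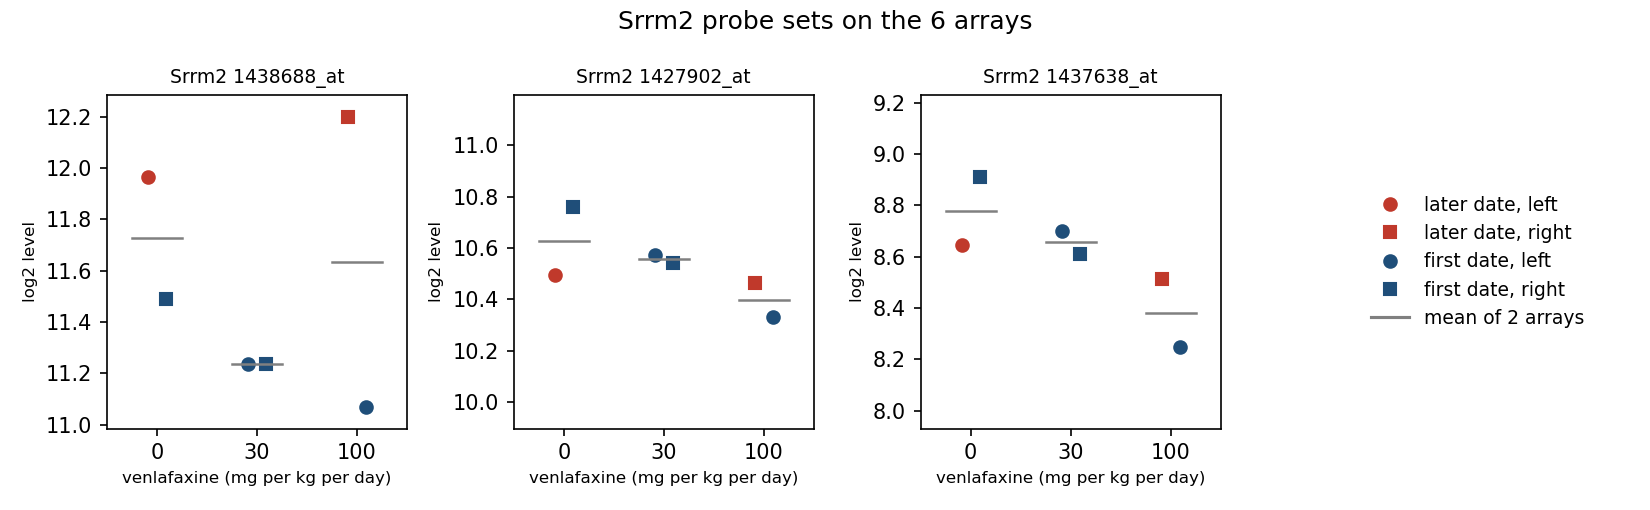
Log2 level (y axis, 1.3 log2 units in every panel) of the 3 Srrm2 probe sets on each array against venlafaxine dose (x axis, mg per kg per day), with colour for hybridization date, shape for brain side and a grey bar for the mean of 2 arrays. The later-date arrays of 1438688_at, at 12.20 and 11.97, stand above all first-date arrays, and the high dose arrays of 1437638_at, at 8.25 and 8.51, are the lowest of that panel.

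Among the Srsf genes, Srsf5, which binds exonic enhancers, had the highest value of the members at the high dose relative to control. Its single probe set, 1423130_a_at, measured 12.77 and 12.95 on control arrays, 12.78 and 13.11 on low dose arrays, and 12.98 and 13.05 on high dose arrays, a high dose minus control difference of 0.16. Both high dose arrays were above both control arrays, but the left low dose array was higher than either. The difference was smaller than the one between the 2 low dose arrays, which shared a date. The lowest Srsf value was that of Srsf6, a regulator of alternative exons, on 1448454_at: 11.55 and 11.37 on control arrays, 11.40 and 11.61 on low dose arrays, and 11.31 and 11.16 on high dose arrays, a difference of -0.23. Both high dose arrays were below the 4 others there. The other 3 Srsf6 probe sets had high dose minus control differences of 0.02 on 1416720_at (10.17 to 10.50 over the 6 arrays), 0.08 on 1416721_s_at (11.51 to 11.86) and 0.09 on 1447898_s_at (11.24 to 11.43).

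The other Srsf genes had small dose differences. Srsf1, which recruits the spliceosome to 5′ splice sites, had 6 tested probe sets with high dose minus control differences from -0.10 to 0.03. They were -0.10 on 1430982_at (10.53 to 11.02 over the 6 arrays), -0.09 on 1453722_s_at (11.26 to 11.48) and -0.07 on 1428100_at (10.04 to 10.27). The others had -0.03 on 1434972_x_at (11.96 to 12.12), 0.00 on 1428099_a_at (11.69 to 11.88) and 0.03 on 1452430_s_at (9.98 to 10.31), and the dim 1457136_at lay between 6.73 and 6.93. On all of these the high dose and control arrays overlapped.

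Srsf2, a speckle protein that stays in the nucleus, had 4 probe sets: -0.05 on 1415807_s_at (9.22 to 9.64), -0.01 on 1452439_s_at (10.82 to 11.09), 0.02 on 1427816_at (8.34 to 8.50) and 0.03 on 1427504_s_at (11.32 to 11.72). Srsf3, the smallest SR protein and an export adaptor, had 6. On 1416151_at the high dose arrays at 10.61 and 10.53 lay below the control arrays at 10.85 and 10.61, with the nearest pair equal to 2 decimals, and the difference was -0.16. The remaining Srsf3 differences were -0.11 on 1454993_a_at (11.08 to 11.50), -0.11 on 1416150_a_at (11.50 to 11.92), -0.08 on 1438215_at (7.86 to 8.05), -0.06 on 1434512_x_at (10.84 to 11.02) and 0.04 on 1416152_a_at (11.01 to 11.33). Srsf11, a relative that acts with Srrm4 on neuronal microexons, had -0.10 on 1439095_at (7.76 to 8.02), -0.09 on 1430077_at (8.95 to 9.15), -0.08 on 1452371_at (11.96 to 12.24) and 0.00 on 1427269_at (10.56 to 10.80). Probe sets whose names end in _s_at or _x_at may also bind transcripts of other genes, which applies to most of the Srsf2 values.

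Over the 35 tested members, the median high dose minus control difference was -0.08, against -0.03 over all 23165 tested probe sets (-0.04 and 0.00 with quantile normalization). Without control replicate 1 these medians were -0.02 and 0.01, and without control replicate 2 -0.13 and -0.08; the members' median was -0.02 without high dose replicate 2. The high dose mean was below the control mean on 26 of 35 members (74.3%), against 64.6% of all tested probe sets. The sign was negative on both dates for 19, positive on both for 4 and opposite for 12. Shares of these signs over all tested probe sets were not counted, so nothing is read from them. The high dose arrays were both under both controls on 6 members, namely Tra2a 1454725_at and 1455933_at, Srsf3 1416151_at, Srsf6 1448454_at, and Srrm2 1427902_at and 1437638_at. That pattern held for 18.2% of all tested probe sets, and nothing is read from the members' count because they were chosen on this contrast. Limma called none of the members or of all probe sets between high dose and control (0% at a Benjamini-Hochberg adjusted p under 0.05), and 553 of the 23165 had an unadjusted p under 0.05. With hybridization date as a term, 122 probe sets passed (0.527% of those tested). The 2 members among them, Tra2a 1454725_at and Srrm2 1437638_at, add nothing, since this is the difference they were selected on.

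The low dose comparison uses the same control arrays, and the comparison of the 2 doses the same high dose arrays, so their values stand beside the ones above without further weight. The median low dose minus control difference over the members was 0.00, against 0.03 over all tested probe sets; without control replicate 1 it was 0.06 and without control replicate 2 -0.06. Markers of oligodendrocytes averaged 12.25 and 12.37 on low dose arrays against 12.13 and 11.95 on control arrays, with a median low dose minus control difference of 0.23 over 19 probe sets, 17 of them above 0, and their part in the low dose values was not tested. Both low dose arrays lay below both controls on 3 members (Tra2a 1455933_at, Srsf11 1439095_at and Srrm2 1438688_at) and on 12.4% of all tested probe sets. Limma called none between low dose and control (0% of all, with 594 probe sets at an unadjusted p under 0.05) and none between high and low dose (0% of all, with 864). With hybridization date as a term, 48 probe sets passed for the low dose (0.207%), and 1 was a member, Tra2a 1454725_at, whose control arrays are those it was selected on. Its low dose minus control difference was -0.40 in that fit and -0.15 both without the date term and with the replicate block. Between the 2 doses the members' median was -0.08 (0.01 with quantile normalization) and that of all tested probe sets -0.06. The largest sizes were 0.40 on Srrm2 1438688_at and -0.36 on Tra2a 1454725_at. Both low dose arrays were from the first date, whereas 1 of the high dose arrays was from the later date. On Srrm2 1438688_at the first-date high dose array, at 11.07, lay below both low dose arrays, at 11.24. The later high dose array, at 12.20, lay above them. On Tra2a 1454725_at both high dose arrays, at 10.54 and 10.08, lay below both low dose arrays.

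Hybridization date is a contrast other than the high dose minus control difference, and its differences ran from -0.50 to 0.80 over the 35 members. The members were chosen with earlier results of these data known, and whether date values played a part is not known. The date p-values and counts of members below are therefore descriptive. Tested with dose group as a term, the later minus first date difference passed on 8 of 35 members (22.9%), against 11.5% of all tested probe sets. Of these 6 were lower on the later date (7.24% of all) and 2 higher (4.28% of all). Several belong to 1 gene, so they are not independent. With quantile normalization, 7 members passed (Srsf3 1416152_a_at was not among them), and 1646 of 3247 calls over all probe sets were higher on the later date, against 991 of 2669 without it. In this fit limma gave every probe set the same standard error, 0.09, and the test rests on the high dose pair and the control pair, in each of which 1 pool was hybridized on each date.

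The members that rose on the later date were Srrm2 1438688_at and Tra2b 1441466_at. Srrm2 1438688_at was higher by 0.80 (limma adjusted p = 6.67e-15), or by 0.86 with quantile normalization (limma adjusted p = 0.00252). It measured 12.20 and 11.97 on the later arrays against 11.07, 11.24, 11.24 and 11.49 on the first-date arrays. The difference was 1.13 in the high dose pair and 0.48 in the control pair, so leaving out either high dose array lowers it to 0.48. Tra2b 1441466_at was higher by 0.58 (limma adjusted p = 7.76e-08), or by 0.57 with quantile normalization (limma adjusted p = 0.00719). It measured 8.18 and 7.90 on the later arrays against 7.38 to 7.64 on the first-date arrays. The difference was 0.80 in the high dose pair and 0.36 in the control pair. On both, the later arrays lay above all 4 first-date arrays, which also held for Srsf11 1439095_at and for 9.83% of all tested probe sets. The other tested probe sets of the same genes did not pass: Srrm2 1427902_at had -0.07 and 1437638_at 0.00, and Tra2b 1427432_a_at and 1419543_a_at had -0.12 each.

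The members that fell on the later date were led by Tra2a 1454725_at, with a difference of -0.50 (limma adjusted p = 5.36e-06). It was made of -0.46 in the high dose pair and -0.54 in the control pair. With quantile normalization it was -0.43 (limma adjusted p = 0.00463). Tra2a 1442886_at had -0.30 (limma adjusted p = 0.0152), and Srsf1 1430982_at -0.38 (limma adjusted p = 0.00102). Srsf3 1454993_a_at had -0.32 (limma adjusted p = 0.00971), Srsf3 1416152_a_at -0.27 (0.0318) and Srsf2 1427504_s_at -0.26 (0.0433). The other tested probe sets of these genes did not pass. Tra2a 1429680_at had 0.09 and 1455933_at -0.10. Those of Srsf1 ran from -0.21 to 0.01, those of Srsf2 from -0.13 to 0.09 and those of Srsf3 from -0.25 to -0.11. Both later arrays lay below all 4 first-date arrays on 9 members, 4 of them Srsf3 probe sets, and on 28.8% of all tested probe sets. When arrays were left out, dropping either array of a dose group gave the same date values. Dropping a low dose array left the differences unchanged, so these fits are not 6 separate checks. The calls of Tra2a 1454725_at and Srrm2 1438688_at were kept whichever of the 6 arrays was left out, but with the replicate block that of Tra2a was lost and 2 members passed, Srrm2 1438688_at and Tra2b 1441466_at. Those of Tra2b 1441466_at and Srsf1 1430982_at were kept in 4 of 6 such fits (lost without either high dose array for Tra2b, and without either control array for Srsf1), those of Tra2a 1442886_at and Srsf3 1454993_a_at in 2 of 6 (lost without any high dose or control array), and those of Srsf3 1416152_a_at and Srsf2 1427504_s_at in 0 of 6.

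The date difference was below 0 in both the high dose pair and the control pair for 23 members, above 0 in both for 6 and opposite for 6. Over all tested probe sets the differences in these pairs correlated at 0.594, and shares by sign were not counted. Nothing is therefore read from the members' counts. The median over the members was -0.12, against -0.05 over all tested probe sets. The RNA integrity number, a score of how whole the RNA is, was 8.2 and 7.9 in the later pools against 8.5 to 9.1 in the first-date pools. With that number as a covariate, 2 members passed, Srrm2 1438688_at and Tra2b 1441466_at, of 391 probe sets in all. Their differences were then 1.35 and 1.02. The number runs closely with date, and the shared standard error rose from 0.09 to 0.22. The lost calls therefore do not show what RNA integrity contributes. Markers of oligodendrocytes (6 of 7 with a passing probe set) averaged 11.84 and 11.95 on the later arrays against 12.12 to 12.37 on the first-date arrays, and the part of either in the date difference was not tested.

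**Figure D3:**
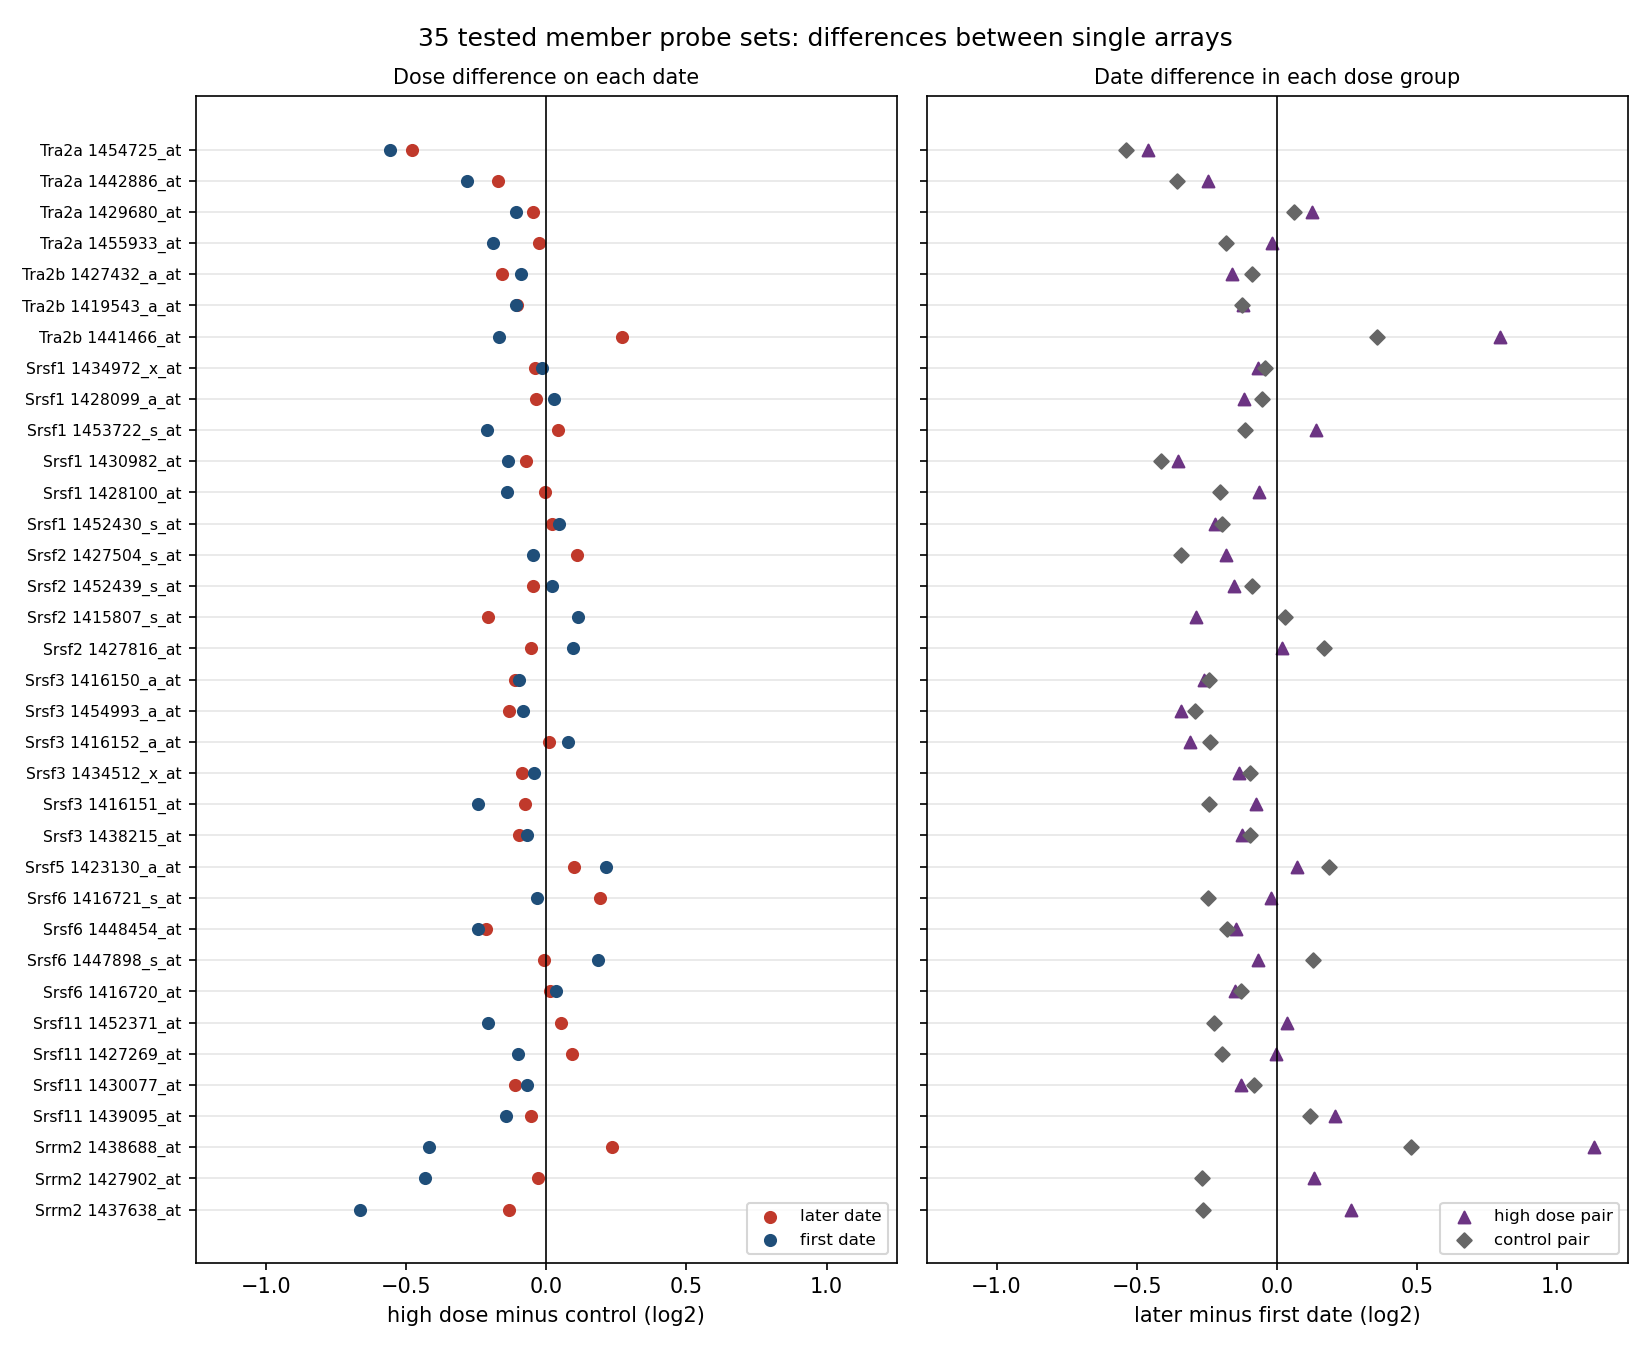
Differences between single arrays for the 35 tested members (rows): left, high dose minus control on the later and the first date; right, later minus first date in the high dose pair and the control pair (x axes, log2). Srrm2 1438688_at lies at 0.23 on the later date and -0.42 on the first date in the left panel and reaches 1.13 in the high dose pair, while both Tra2a 1454725_at points stay near -0.5 in both panels.

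The high dose minus control difference of Srrm2 1438688_at was not the same on the 2 dates. It was 0.23 on the later date and -0.42 on the first date, a difference between dates of 0.65. Limma called 116 of all tested probe sets for such a difference (0.501%), this 1 member among them. The spread in that fit came from the low dose pair only, which shared a date. It holds no variation of high dose or control pools, and the members were chosen on this contrast. The members' values are therefore a description, with no p-value. Since the later high dose pool was right and the later control pool left, and the first-date pools the reverse, date and side cannot be told apart in this value. For Tra2a 1454725_at the 2 dates differed by 0.08. Srrm2 1437638_at, with -0.13 on the later date and -0.66 on the first, was not called.

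Brain side was tested with dose group as a term, and limma called none of the members or of all probe sets (0% at an adjusted p under 0.05; 0 of 35 members and 100 of 23165 had an unadjusted p under 0.05). The median left minus right difference was 0.03 over the members and -0.01 over all tested probe sets (0.04 and 0.00 with quantile normalization). The members' median was -0.01 without either low dose array, 0.01 without either high dose array and 0.12 without either control array. The low dose pair is the only one in which both sides shared a date. There the left pool was higher on 29 of 35 members, with a median difference of 0.12, against 0.08 over all tested probe sets, where 18090 of 23165 were higher on the left. The largest value in that pair was 0.33 on Srsf5 1423130_a_at, at 13.11 on the left array against 12.78 on the right, and the lowest was -0.11 on Tra2b 1441466_at. Left was higher in all 3 dose groups on 2 members and lower in all 3 on 0, and the shares over all tested probe sets were not counted.

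The 2 pools of a dose group also differed from each other. Every pair differs in side, and the control and high dose pairs differ in date as well. Their differences therefore hold side and date along with the spread between pools. Over the members, the median absolute difference within a pair was 0.19 in the control group, 0.12 in the low dose group and 0.14 in the high dose group, against 0.13, 0.09 and 0.09 over all tested probe sets. The high dose minus control difference was 0.2 or more in size on 5 of 35 members (14.3%), which were selected on it, and on 4.99% of all tested probe sets. These 5 were Tra2a 1454725_at and 1442886_at, Srsf6 1448454_at, and Srrm2 1427902_at and 1437638_at. Probe sets of 1 gene followed each other most closely for Srsf3, whose 15 pairs ran from 0.531 to 0.976 (median 0.851), and Srsf1, whose 15 pairs ran from 0.286 to 0.924 (median 0.740). For Srsf2 (-0.838 to 0.729), Srsf6 (-0.442 to 0.788) and Srsf11 (-0.399 to 0.828) some pairs ran in opposite directions over the 6 arrays.

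Many other transcripts shared the members' patterns. The probe sets most like Tra2a 1454725_at over the 6 arrays were those of Sh3glb1 (Pearson r = 0.996), Pstk (0.994), Zfp292 (0.994), Cdc73 (0.993) and Smg9 (0.991), and 630 exceeded 0.9. For Tra2b 1427432_a_at they were Srsf11 1430077_at (0.994), Sgk3 (0.993), Cnot6 (0.993), Fbxo7 (0.991) and Sass6 (0.989), with 497 over 0.9. For Srrm2 1438688_at they were Phip (0.998), Cacng4 (0.998), Efcab14 (0.998), Zfp934 (0.997) and Sbno1 (0.997), with 673 over 0.9. These are descriptions over 6 arrays that share dose and date.

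The wider splicing machinery is given by lists, written with earlier results of these data known. Limma called none of their probe sets at either dose, with 0 to 4 per list at an unadjusted p under 0.05 for each dose. SR kinases and the importer of SR proteins had a median high dose minus control difference of -0.10 over 24 probe sets, below 0 on 23 of them, where 64.6% of all tested probe sets were below 0, with Prpf4b, a kinase of the spliceosome, at -0.25 on 1436427_at and Tnpo3, the SR importer, at -0.21 on 1453124_at. Their median was -0.07 on the later date and -0.20 on the first date. Exon junction and nonsense-mediated decay factors had a median of -0.12 over 12 probe sets, with the helicase Upf1 at -0.18 and Upf2 at -0.18. Medians were -0.06 for 116 probe sets of other SR and SR-related genes and -0.06 for 64 of hnRNP genes, whose products often counter SR proteins. They were -0.04 for 51 of neuronal splicing regulators and -0.01 for 66 of the core spliceosome. Single genes of these lists ran both ways, with Arglu1 1433598_at at 0.34, Sf3b2 1429362_a_at at 0.32 and Celf2 1444152_at at -0.35. Differences were above 0 on 28 of the 116 SR-related and 30 of the 66 core spliceosome probe sets, against 8195 of all 23165.

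By date, these lists held calls in both directions. Of all tested probe sets 11.5% were called, 4.28% as higher on the later date and 7.24% as lower. The lists were written with earlier results of these data known, so their counts are descriptive. Among other SR and SR-related genes 13 of 116 were higher later and 9 lower, with Ppig, a speckle cyclophilin, at 0.60 (limma adjusted p = 1.3e-08) and Rbm25, a regulator of 5′ splice sites, at 0.51 (3.45e-06). Of the SR kinases 2 of 24 were higher and 2 lower, with Srpk2, which phosphorylates SR proteins in the cytoplasm, at 0.65 (limma adjusted p = 8.15e-10) and Dyrk1a, another kinase of splicing factors, at -0.35 (0.00291). Among hnRNP genes 1 of 64 was higher and 11 were lower, with Hnrnpc at -0.48 (limma adjusted p = 1.3e-05) and Syncrip at -0.32 (0.00766). In the core spliceosome 3 of 66 were higher and 4 lower, with Sf3b1, which holds the branch point, at 0.78 (limma adjusted p = 5.36e-14) and Sf1 at -0.32 (0.00887). Neuronal splicing regulators had 5 of 51 higher and 4 lower, with Celf1 at 0.41 (limma adjusted p = 0.000381), and exon junction and decay factors 1 of 12 in each direction, Smg1, the kinase of Upf1, at 0.39 (0.000959) and Upf1 at -0.26 (0.0476).

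**Figure D4:**
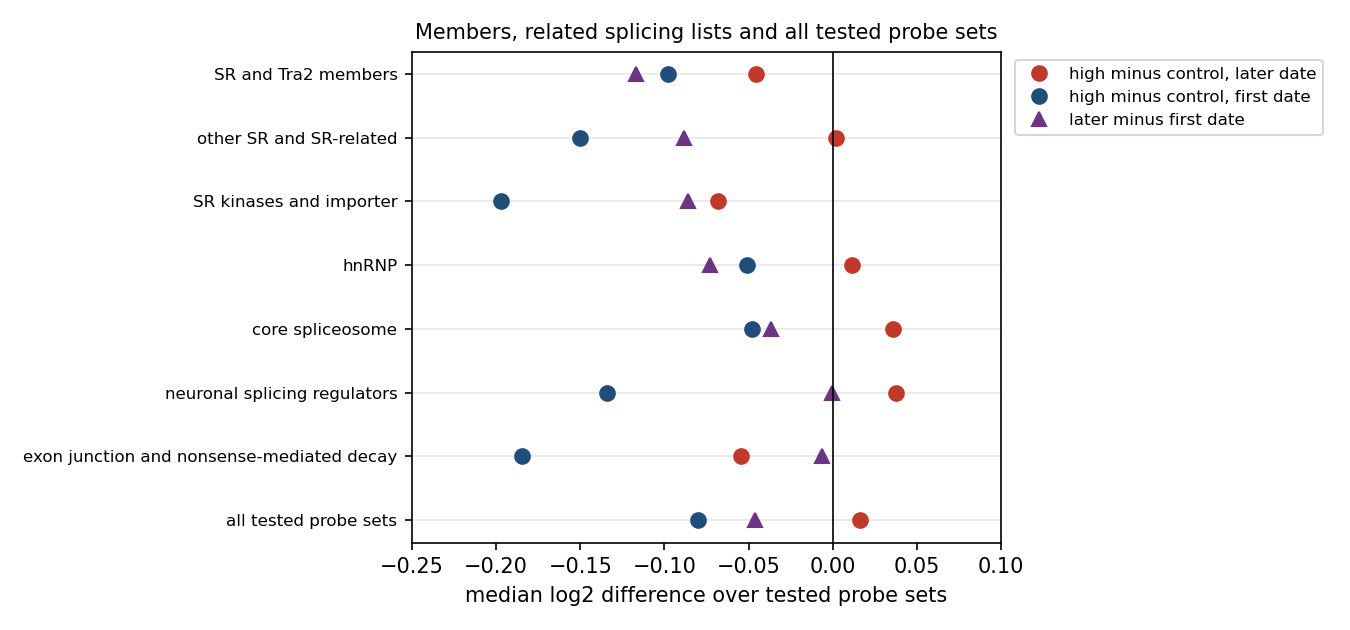
Median log2 difference over the tested probe sets (x axis) of the SR and Tra2 members, 6 related lists and all tested probe sets (rows), for high dose minus control on the later and the first date and for later minus first date. The members' medians were -0.05 on the later date, -0.10 on the first date and -0.12 between dates, against 0.02, -0.08 and -0.05 for all tested probe sets.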

How the data were processed

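Hippocampal RNA pools of 3 venlafaxine dose groups (2 pools each) were measured on 6 Affymetrix mouse arrays. The authors deposited log2 values of 45101 probe sets made with RMA in R 3.0.1, per the submitters' processing notes; RMA corrects background, brings arrays to a common distribution and summarises the probes of a set, which compresses differences at low signal. That the scale is log2 follows from the range, 6.10 to 15.31. The 64 control probe sets were left out. Genes came from the platform annotation supplied, with symbols updated through Entrez identifiers for 34754 probe sets; 34945 had 1 symbol, 932 several and 9160 none. Tests were run on the 23165 probe sets (11742 genes) that exceeded the array median on 2 arrays or more.

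Limma 3.58.1 in R 4.3.3 (lmFit, eBayes, two-sided, Benjamini-Hochberg adjustment over all tested probe sets, threshold 0.05) fitted 1 coefficient per dose group, and for date and side the dose group plus that term. In the date fit the estimated prior degrees of freedom were infinite, so all probe sets shared 1 spread. The fits were also run on simulated data with independent noise. Apart from the changes put in, those data held no date or side effect. The runs therefore do not show how the fits behave with the date differences seen here. The members and lists were chosen with earlier results of these data known. Every member probe set was reported, with up to 4 genes per related list by the size of their difference at either dose and the 5 most similar patterns for the brightest probe sets of Tra2a, Tra2b and Srrm2. Replicate numbers pair arrays by hybridization date in the control and high dose groups, per the labels; replicate differences correlated at 0.594 between high dose and control, 0.018 between low dose and control and -0.0154 between high and low dose. Alternatives were no filter, a stricter filter, median centring, quantile normalization, terms for date, side, replicate number or RNA integrity, trend and robust moderation, 1 probe set per gene, first-date arrays only and leaving out each array.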

Additional observations from a re-analysis of the deposited data

Results flagged for a closer look

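Srrm2 1438688_at stood out because its high dose minus control difference was not the same on the 2 hybridization dates. It was 0.23 on the later date and -0.42 on the first date, a change of 0.65. Each of these values compares 1 array with 1 array, and date and side cannot be told apart in the change.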

How the results depend on the processing

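Counts of probe sets called by limma, for all tested probe sets and for the members, depended on the terms of the model more than on scaling or filters. High dose against control gave 0 of all and 0 members, but 122 and 2 with date as a term, 17 and 1 with the replicate block, 65 and 2 with RNA integrity as a covariate and 201 and 2 on the first date alone; it gave 2 of all with side as a term, 1 with the stricter filter, 1 with trend and robust moderation and 1 with 1 probe set per gene. Leaving out 1 array gave 0 to 95 of all and 0 to 1 members. Low dose against control (0 and 0) gave 48 and 1 with date, 99 and 1 with the replicate block, 48 and 1 with RNA integrity and 80 and 1 on the first date alone, 2 of all with side and 5 with 1 probe set per gene, and 0 to 100 of all and 0 to 1 members without 1 array. High against low dose (0 and 0) gave 9 with date, 68 with the replicate block, 9 with RNA integrity and 31 on the first date, and 0 to 694 of all and 0 to 3 members without 1 array. Left against right (0 and 0) gave 7 with date, 16 with the replicate block, 316 and 2 members with RNA integrity, and 0 to 2 without 1 array. Later against first date (2669 and 8) gave 182 and 2 with the replicate block, 391 and 2 with RNA integrity, 5 members with trend and robust moderation, 818 and 2 with 1 probe set per gene, which tests fewer, and 1404 to 2227 of all and 3 to 6 members without 1 array. Otherwise the cause was not tested. The sign of the Srrm2 1438688_at high dose difference depended on the array left out (0.47 without high dose replicate 1, -0.66 without high dose replicate 2, 0.15 without control replicate 2). Date as a term in the date comparison, side in the side comparison, and the first date alone for date and for side could not be fitted. With 1 array left out, a lone pool was assumed to vary like the other groups.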
